A study of Mus musculus with 6 samples.

Results

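The glutathione transferase genes described here are Mgst1, Mgst2, Mgst3, Gstm1, Gsta3, Gsta4, Gstp1, Gstt1, Gsto1 and Gstk1. They were taken as every probe that is not a control and whose transcript accession belongs to one of these 10 symbols, which gave 15 probes of the 39429 on the array. The set was chosen by the log2 processed signals of IL-4 against PBS in these same arrays, where Mgst2 and Gstm1 were already known to have fallen. All 10 genes, of 29752 genes or unnamed transcripts tested, are accounted for below. The comparison of IL-4 with PBS is therefore given for the members as a description, without a test of its own. The cells were BV2, a mouse microglial line made by immortalisation. Microglia are macrophages that live in the brain. Samples of the first group had recombinant murine IL-4 at 10 ng/ml in the medium for 24 hr, and those of the second group had PBS for 24 hr. All had been plated on poly-L-lysine for 24 hr before that, and all were grown in DMEM with serum and antibiotics. Each group had 3 samples, each hybridised to its own single-colour Agilent array, and the labels do not say whether these came from separate cultures, so the spread between arrays, and any p-value resting on it, may be technical. A description label speaks of human blood and the design text of untreated controls, against the other labels, which were followed.

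Glutathione transferases join the tripeptide glutathione to reactive electrophiles, and several of them also reduce lipid peroxides. The microsomal enzymes encoded by the Mgst genes are small membrane proteins of the MAPEG family, to which leukotriene C4 synthase and the 5-lipoxygenase activating protein also belong. The cytosolic enzymes fall into classes named by Greek letters, among them alpha (Gsta), mu (Gstm), pi (Gstp), theta (Gstt) and omega (Gsto), while the kappa enzyme (Gstk1) sits in mitochondria and peroxisomes. Many of these genes carry antioxidant response elements bound by NRF2, and IL-4 acts on macrophages largely through STAT6.

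For the genes whose arrays differed most, Mgst2, Mgst1, Mgst3 and Gstm1, the 250 bases before an annotated RefSeq start (GRCm38.p6) are printed. The Mgst2 window lies inside the gene as RefSeq bounds it, before a start downstream of the outermost one. Gstp1 is added as a member whose groups overlapped. Of the 10 members 9 had a window in the RefSeq promoter table, 11 windows in all, with 2 each for Mgst1 and Gstm1, of which the one at the outermost start is shown. The windows lie at chr3:51660929-51661178 (plus strand) for Mgst2, chr6:138140277-138140526 (plus strand) for Mgst1, chr1:167393842-167394091 (minus strand) for Mgst3, chr3:108017974-108018223 (minus strand) for Gstm1 and chr19:4037913-4038162 (minus strand) for Gstp1. Capitals mark matches to TGANTCA (the AP-1 site), TGACNNNGC (the core of the antioxidant response element) or TTC and GAA with 4 bases between them (the spacing preferred by STAT6), searched on both strands.
Mgst2: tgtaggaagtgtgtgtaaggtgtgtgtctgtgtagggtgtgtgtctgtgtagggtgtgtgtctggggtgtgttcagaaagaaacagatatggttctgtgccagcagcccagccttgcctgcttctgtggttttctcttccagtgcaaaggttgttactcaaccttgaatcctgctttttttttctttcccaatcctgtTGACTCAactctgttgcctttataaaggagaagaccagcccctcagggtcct
Mgst1: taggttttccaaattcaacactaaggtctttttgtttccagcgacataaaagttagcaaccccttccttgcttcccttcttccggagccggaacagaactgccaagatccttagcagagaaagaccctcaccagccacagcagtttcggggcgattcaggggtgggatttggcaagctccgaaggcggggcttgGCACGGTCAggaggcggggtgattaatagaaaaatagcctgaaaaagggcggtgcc
Mgst3: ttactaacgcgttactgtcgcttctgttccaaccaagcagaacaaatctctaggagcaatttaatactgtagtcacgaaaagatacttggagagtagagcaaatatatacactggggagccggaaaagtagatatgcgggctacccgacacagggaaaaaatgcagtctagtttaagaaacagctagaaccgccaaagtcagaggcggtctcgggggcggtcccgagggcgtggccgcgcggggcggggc
Gstm1: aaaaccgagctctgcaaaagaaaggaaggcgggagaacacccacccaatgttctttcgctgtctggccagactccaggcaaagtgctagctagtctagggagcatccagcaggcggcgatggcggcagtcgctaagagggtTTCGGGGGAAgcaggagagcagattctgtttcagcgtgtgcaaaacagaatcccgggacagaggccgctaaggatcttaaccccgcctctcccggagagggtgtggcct
Gstp1: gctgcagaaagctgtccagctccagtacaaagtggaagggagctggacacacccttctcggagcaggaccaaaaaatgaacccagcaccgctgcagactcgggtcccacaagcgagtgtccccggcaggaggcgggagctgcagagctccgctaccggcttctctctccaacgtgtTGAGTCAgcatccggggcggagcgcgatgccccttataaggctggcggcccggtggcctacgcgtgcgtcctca
In Mgst2 the match was TGACTCA, 52 to 46 bases before the start, and in Gstp1 it was TGAGTCA, 74 to 68 bases before the start, both of the AP-1 kind. Mgst1 held the antioxidant response core on the reverse strand as GCACGGTCA, and Gstm1 held the STAT6 spacing as TTCGGGGGAA. The Mgst3 window held none of the 3 motifs. No matches overlapped. Over the 32851 promoter windows of the table, 6.75% held the AP-1 letters, 10.2% the antioxidant response core and 5.85% the STAT6 spacing. Of the 11 member windows 2 held the AP-1 letters, 2 the antioxidant response core (Mgst1 and Gsta3) and 1 the STAT6 spacing, and 6 held none. These matches describe the letters only.

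Levels are log2 processed signals after subtracting each array's own 75th percentile, so that 0 means as bright as that percentile. Levels of different probes cannot be set against each other. Per array, 34653 to 38649 of the 39429 probes were well above background. The percentile itself lay at a signal of 674 to 876, and no spot was saturated. All 15 member probes were well above background on all 6 arrays, so each of the 10 genes passed the filter on dim probes through both groups. Slide 1 carried all IL-4 arrays together with PBS replicate 1, whereas slide 2 carried the other PBS arrays, replicates 2 and 3, so a difference over all arrays can include a difference between slides. For this reason the difference within slide 1, the mean of the 3 IL-4 arrays minus PBS replicate 1, is given beside the members' fold changes. Of the 9 macrophage and microglia markers tested, all were well above background on all arrays. Their summed level was 21.5 to 23.0 times the 75th percentile in IL-4 arrays and 26.0 to 34.2 in PBS arrays, and the part of this in the results below was not tested. Of the 9, 3 fell in limma (Tyrobp, Lyz2 and Aif1), where 2.54% of all tested genes were called lower, whereas a limma fit that blocks on slide called 0 of the 9, with adjusted p values of 0.22 to 0.23 for these 3. Their log2 fold changes were -0.95, -0.81 and -0.72 over all arrays and -0.54, -0.55 and -0.49 within slide 1. The 3 astrocyte markers measured on all arrays (4 of 5 were tested) summed to 0.499 to 0.528 in IL-4 arrays and 0.467 to 0.495 in PBS arrays. The 5 neuron markers summed to 2.07 to 2.45 in IL-4 arrays and 1.63 to 1.90 in PBS arrays, and the 5 oligodendrocyte markers to 3.20 to 3.67 in IL-4 arrays and 1.79 to 3.15 in PBS arrays. The 4 fibroblast markers tested of 5 summed to 0.213 to 0.277 in IL-4 arrays and 0.249 to 0.300 in PBS arrays, and the 5 hepatocyte markers to 0.467 to 0.508 in IL-4 arrays and 0.438 to 0.471 in PBS arrays. Their part in the results was not tested either. In cells measured in bulk, fewer cells expressing a gene and less RNA per cell cannot be told apart.

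All 3 microsomal genes were lower with IL-4, Mgst2 by the most. Mgst2 encodes an enzyme that conjugates leukotriene A4 with glutathione to form leukotriene C4 and that also reduces lipid hydroperoxides. Its processed signal was 885, 1072 and 908 in the IL-4 arrays, against 2523, 2292 and 2598 in the PBS arrays. Relative to the 75th percentile its log2 level was 0.29, 0.32 and 0.31 with IL-4, against 1.53, 1.77 and 1.84 with PBS. The IL-4 arrays were nearly level with each other, every one of them lay below every PBS array, and PBS replicate 1 was the lowest of its group. The means were 0.31 ± 0.02 with IL-4 and 1.71 ± 0.16 with PBS (SD, n = 3 each). The log2 fold change was -1.41 ± 0.11 (SE), a 2.65-fold lower level, which ranked 8 from the lowest among the 29752 genes or unnamed transcripts tested. Within slide 1 the difference was -1.22, ranking 16 from the lowest. Mgst2 has 1 probe on this array.

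**Figure D1:**
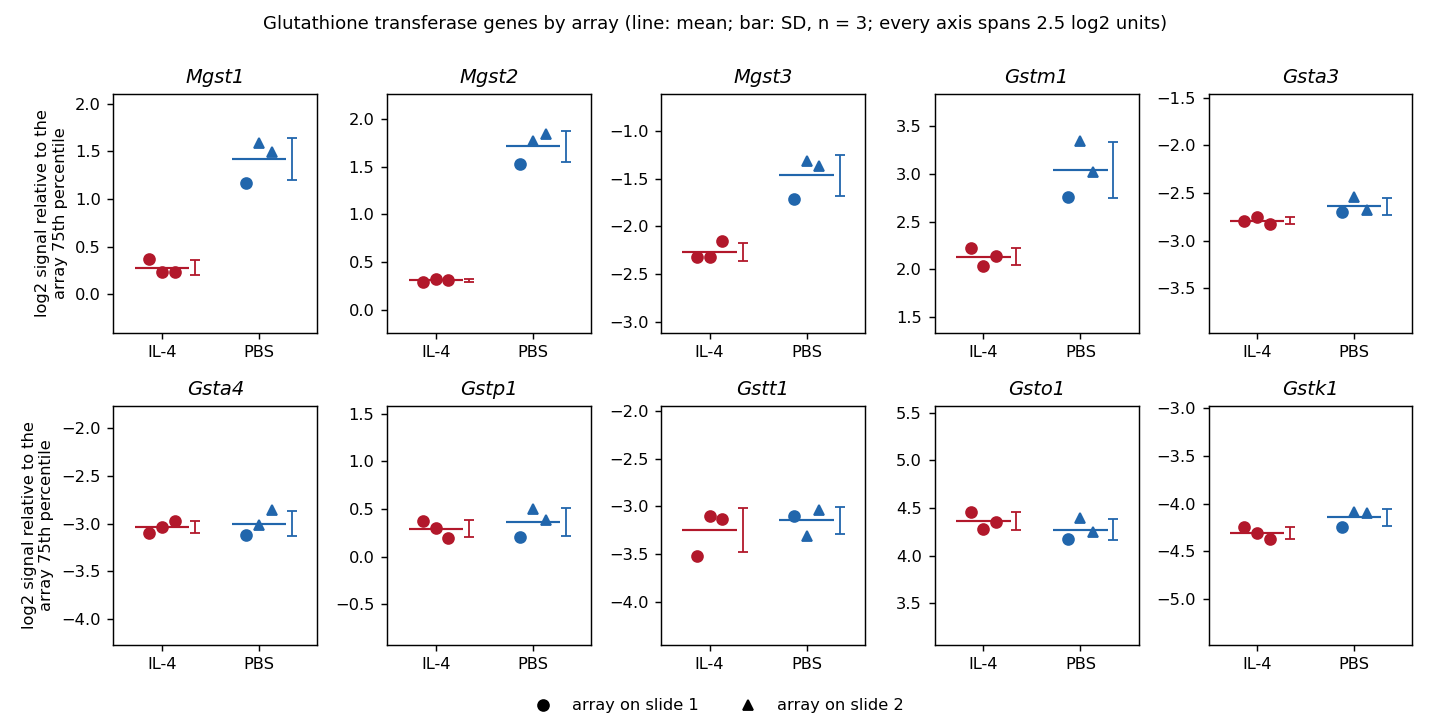
Log2 level of each of the 10 genes, with the array's 75th percentile at 0 (vertical axis), for the 3 IL-4 arrays (red) and the 3 PBS arrays (blue). Circles are arrays on slide 1 and triangles arrays on slide 2, lines are group means and bars the SD. The IL-4 arrays lie well below the PBS arrays for Mgst1, Mgst2, Mgst3 and Gstm1, and the groups overlap or nearly touch for the other 6 genes.

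Mgst1 encodes the glutathione transferase and peroxidase of the endoplasmic reticulum and outer mitochondrial membrane. Its brighter probe was at 0.37, 0.24 and 0.24 with IL-4, against 1.17, 1.59 and 1.49 with PBS, on the log2 scale relative to the 75th percentile. Its dimmer probe was at -0.67, -0.68 and -0.69 with IL-4, against 0.06, 0.28 and 0.23 with PBS. On both probes the groups were apart by more than the spread within either group. The log2 fold change was -1.13 ± 0.13 on the brighter probe and -0.87 ± 0.10 on the dimmer one (SE), or 2.20-fold and 1.82-fold lower with IL-4. Within slide 1 the differences were -0.89 and -0.73.

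Mgst3 encodes the third microsomal enzyme of this set, with glutathione-dependent peroxidase activity. Its brighter probe was at -2.32, -2.32 and -2.16 in IL-4 arrays, against -1.71, -1.31 and -1.37 in PBS arrays, again as log2 levels. Its dimmer probe was at -2.30, -2.37 and -2.34 with IL-4, against -1.93, -1.47 and -1.54 with PBS. The groups did not overlap on either probe, and PBS replicate 1 lay closest to the IL-4 arrays on both. The log2 fold changes were -0.80 ± 0.13 and -0.69 ± 0.14 (SE). Within slide 1 they were smaller, at -0.55 and -0.41.

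Among the cytosolic genes, Gstm1 was the only member whose brighter probe was clearly lower with IL-4. It encodes a mu class enzyme of broad substrate range. The brighter probe was at 2.22, 2.04 and 2.14 with IL-4, against 2.75, 3.34 and 3.01 with PBS, and the dimmer one at -1.65, -1.82 and -1.75 with IL-4, against -1.26, -1.13 and -1.22 with PBS. The PBS arrays were spread over a wider range than the IL-4 arrays on the brighter probe and over a similar one on the dimmer, and the groups were apart on both. The log2 fold change was -0.90 ± 0.15 on the brighter probe and -0.54 ± 0.10 on the dimmer (SE), with differences of -0.62 and -0.48 within slide 1. The mu genes are close in sequence, and cross-hybridisation between them was not tested.

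The alpha class genes gave an unequal picture. Gsta3 encodes an alpha class enzyme that also has steroid isomerase activity. Its brighter probe was at -2.79, -2.75 and -2.82 with IL-4, against -2.70, -2.54 and -2.68 with PBS, whereas its dimmer probe was at -4.69, -4.46 and -4.43 with IL-4, against -3.85, -3.49 and -3.91 with PBS. The IL-4 arrays were below the PBS arrays on both probes, with log2 fold changes of -0.15 ± 0.10 on the brighter and -0.78 ± 0.14 on the dimmer (SE). Within slide 1 the differences were -0.09 and -0.67. The fold changes of the Gsta3 probes were 0.63 apart over all arrays, which was larger than that of 85.1% of the 4129 genes with 2 tested probes, for which the median was 0.23. For comparison, the probes of Gstm1, Mgst1, Mgst3 and Gstp1 differed by 0.37, 0.27, 0.11 and 0.02. The dimmer Gsta3 probe had a processed signal of only 28.1 to 39.0 in IL-4 arrays and 48.4 to 60.6 in PBS arrays.

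Gsta4 encodes the alpha class enzyme that conjugates hydroxynonenal, a product of lipid peroxidation. Its probe was printed 10 times on each array, which gives the spread between single spots within an array, not that between arrays. The SD between copies was 0.127, 0.111 and 0.101 in the IL-4 arrays, and 0.072, 0.157 and 0.129 in the PBS arrays (log2 scale). Averaged over copies, the level was -3.10, -3.04 and -2.97 with IL-4, against -3.12, -3.02 and -2.86 with PBS. The groups overlapped, and the log2 fold change was -0.04 ± 0.11 (SE). Within slide 1 the difference was 0.08, with the sign turned.

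For the remaining 4 genes the groups were close. Gstp1, the pi class gene, was at 0.38, 0.30 and 0.20 with IL-4, against 0.21, 0.50 and 0.38 with PBS, and its log2 fold change was -0.07 ± 0.11 (SE), with a sign that turned within slide 1 (0.08). The dimmer Gstp1 probe was at -1.11, -1.07 and -1.14 with IL-4, against -1.18, -0.97 and -1.01 with PBS, a log2 fold change of -0.05 ± 0.10 and 0.07 within slide 1. Gstp2, a paralogue close in sequence and named after its values were seen, had a log2 fold change of -0.18 ± 0.13, and cross-hybridisation was not tested. Gsto1, an omega class enzyme that reduces dehydroascorbate, was at 4.46, 4.27 and 4.35 with IL-4, against 4.17, 4.40 and 4.25 with PBS, and was the only member with a fold change above 0, at 0.09 ± 0.11 (SE). This direction turned under quantile normalization, where the log2 fold change was -0.01. Gstt1, the theta class gene, was at -3.51, -3.10 and -3.13 with IL-4, against -3.10, -3.31 and -3.04 with PBS, and its log2 fold change of -0.10 ± 0.14 (SE) rested on IL-4 replicate 1, without which it was 0.03. These 3 genes overlapped between the groups, and within slide 1 Gsto1 differed by 0.19 and Gstt1 by -0.15. Gstk1 was at -4.25, -4.31 and -4.38 with IL-4, against -4.24, -4.09 and -4.10 with PBS. Its groups stood apart by less than 0.01, and the log2 fold change was -0.17 ± 0.10 (SE), or -0.07 within slide 1.

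**Figure D2:**
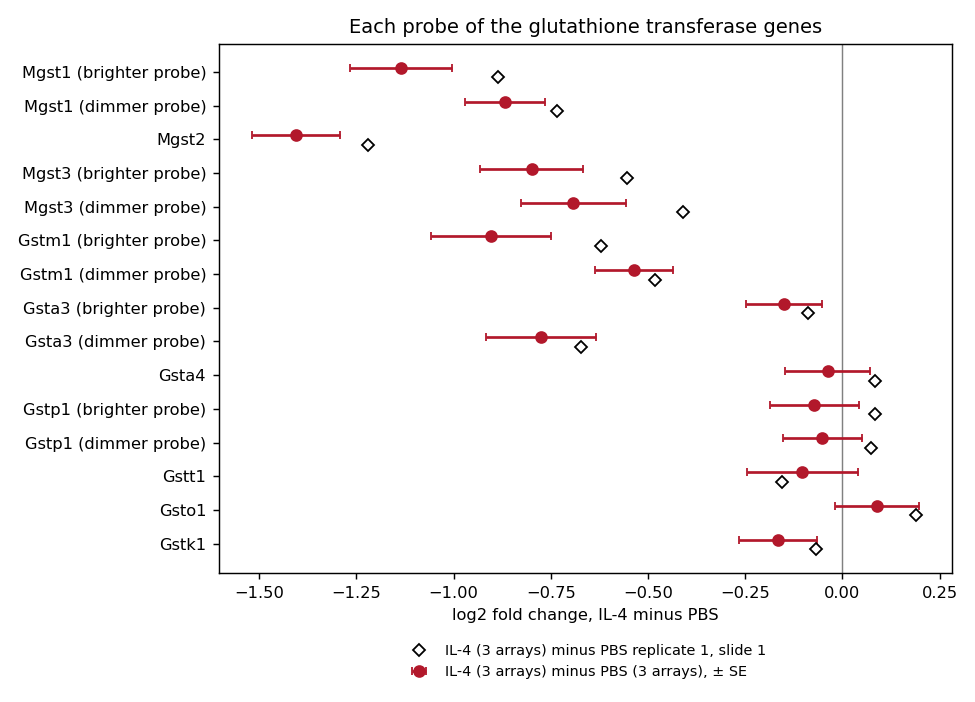
Log2 fold change of each of the 15 probes (horizontal axis). Filled circles with SE compare the 3 IL-4 arrays with the 3 PBS arrays, and open diamonds give the 3 IL-4 arrays minus PBS replicate 1 on slide 1. Mgst2 has the largest change at -1.41, and the dimmer probe of Gsta3 lies at -0.78 where its brighter probe lies at -0.15.

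In the limma fit over all 29752 genes, 4 of the 10 members passed an adjusted p of 0.05, all of them lower with IL-4, beside 2.54% of all tested genes called lower and 3.35% called in either direction. None of the 10 (0) was called higher, beside 0.807% of all genes. They were Mgst2, Mgst1, Gstm1 and Mgst3, and nothing is read from this count, since the set was chosen with the comparison known. The IL-4 arrays lay below all PBS arrays for 6 of the 10 members, where 19.8% of all tested genes did so, and above them for 0, where 18.7% did. The median log2 fold change was -0.16 over the members and -0.05 over all tested genes. With slide as a block 1 member, Mgst2, passed as lower, beside 0.0101% of all genes (3 genes) called lower and 0.0303% called in either direction. Slide 2 held no IL-4 array, so this fit sets the IL-4 arrays against PBS replicate 1 alone. Its p therefore holds no spread between PBS arrays of slide 1. Without PBS replicate 1 the count was 4 of 10, beside 23% of all genes called lower and 42.6% called in either direction. Without IL-4 replicate 1, 2 or 3 or PBS replicate 2 or 3 it was 0 of 10 by limma, and 0 to 3 genes were called on the whole array. In each of these 5 fits 4 members had an unadjusted p under 0.05, as did 24.6%, 24.2%, 27%, 21.2% and 20.5% of all genes, in the order in which the omissions are named. The fold changes themselves moved less, between -1.50 and -1.34 for Mgst2, -1.26 and -1.05 for Mgst1, -1.05 and -0.75 for Gstm1 and -0.92 and -0.72 for Mgst3 over these 6 omissions.

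PBS replicate 1 stood below the mean of PBS replicates 2 and 3 for 9 of the 10 members, beside 17772 of the 29752 genes tested. The differences were -0.37 for Mgst1, -0.28 for Mgst2, -0.37 for Mgst3 and -0.42 for Gstm1 on the log2 scale. Among the members the exception was Gstt1. The median of this difference was -0.21 over the members and -0.08 over all tested genes. All 3 IL-4 arrays lay below PBS replicate 1 for 7 of the 10 members, beside 25.5% of all genes, and above it for 2, beside 30.5% of all genes. Within slide 1 the median difference was -0.12 over the members and 0.01 over all tested genes. Mgst1 ranked 42 from the lowest over all arrays and 66 within slide 1, Gstm1 178 and 325, and Mgst3 327 and 479.

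**Figure D3:**
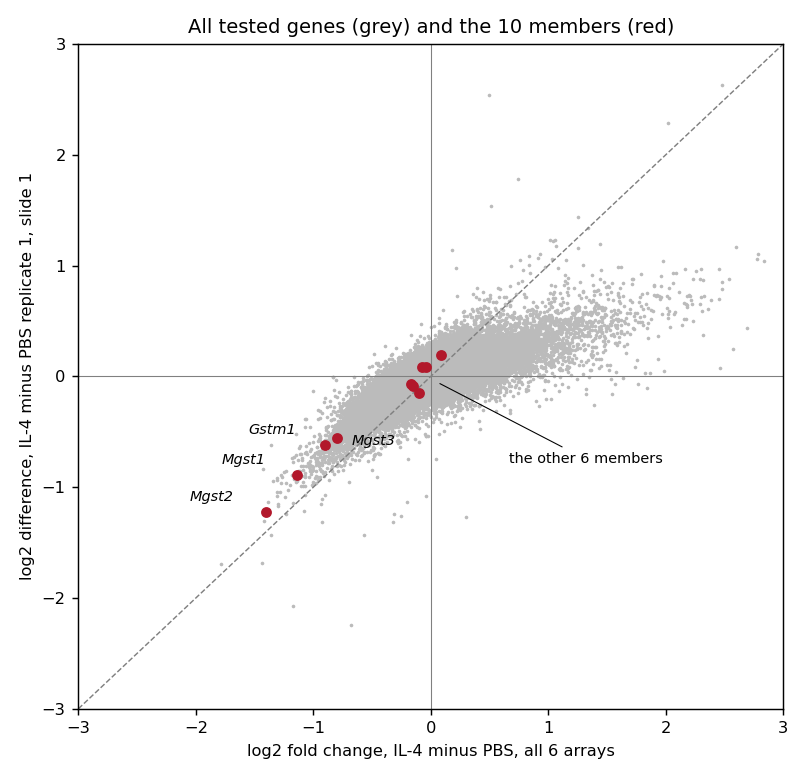
Log2 fold change of IL-4 minus PBS over all 6 arrays (horizontal axis) against the mean of the 3 IL-4 arrays minus PBS replicate 1 on slide 1 (vertical axis), for all tested genes (grey) and the 10 members (red), with the line of equality dashed. Both axes share the IL-4 arrays and PBS replicate 1. Mgst2, Mgst1, Gstm1 and Mgst3 lie below 0 on both axes, at -1.22, -0.89, -0.62 and -0.55 on the vertical one.

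The genes whose pattern over the 6 arrays was most like that of Mgst2, by the root mean square difference after centring each gene on its mean, were Dcp1b, Cybb, Ctdsp2 and Bmf among 17887 named genes. The differences were 0.05, 0.06, 0.07 and 0.09 on the log2 scale. Cybb encodes the catalytic subunit of the phagocyte NADPH oxidase, Dcp1b an mRNA decapping factor and Bmf a pro-apoptotic protein of the BCL2 family. Cybb was at -1.56, -1.45 and -1.44 with IL-4, against -0.31, -0.16 and -0.05 with PBS. The SD of Cybb over the IL-4 arrays was 0.07, against 0.02 for Mgst2, and for both genes PBS replicate 1 was the lowest of its group. All 4 genes share these 6 arrays with Mgst2, and their log2 fold changes were -1.42 to -1.24. Since they were picked by likeness to Mgst2 on these arrays, their shared pattern follows from the choice.

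Other genes of the family did not pass. Of 19 further glutathione transferase and related genes, 17 had a probe and 15 were tested, and 0 passed in limma, while 5 were lower and 2 higher at an unadjusted p under 0.05. At that threshold 34.1% of all tested genes stood, 17.5% lower and 16.6% higher, and these shares apply to the counts of the pathway lists that follow. The median log2 fold change of the 15 was -0.18, beside -0.05 over all tested genes. The largest differences were -0.80 ± 0.31 for Gdap1, a mitochondrial outer membrane protein related to the family, -0.61 ± 0.13 for the theta class gene Gstt3 and 0.56 ± 0.20 for the mu class gene Gstm6 (SE, adjusted p = 0.12, 0.051 and 0.099, limma). Gdap1 was at -5.49, -4.58 and -4.25 with IL-4, against -4.33, -3.87 and -3.72 with PBS, with overlapping groups, 5 of 6 arrays well above background and a difference of -0.45 within slide 1. Gstt3 was at -2.40, -2.36 and -2.35 with IL-4, against -2.04, -1.64 and -1.60 with PBS, so the groups were apart, with PBS replicate 1 nearest to the IL-4 arrays, and within slide 1 the difference was -0.33. Gstm6 was at -1.58, -1.84 and -1.92 with IL-4, against -1.88, -2.52 and -2.62 with PBS, and within slide 1 its difference was 0.10. The Gstm6 groups overlapped.

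Since Mgst2 can make leukotriene C4, the other MAPEG and leukotriene genes were examined next. Of 11 tested, 0 passed in limma and 3 were lower at an unadjusted p under 0.05 (34.1% of all genes in either direction), with a median log2 fold change of -0.21. Alox5ap, the 5-lipoxygenase activating protein, was at 0.47, 0.41 and 0.48 with IL-4, against 0.82, 0.99 and 1.19 with PBS (log2 fold change -0.54 ± 0.12, adjusted p = 0.051, limma). Lta4h, which turns leukotriene A4 into leukotriene B4, was at 1.11, 1.21 and 1.21 with IL-4, against 1.61, 1.55 and 1.81 with PBS (-0.48 ± 0.11, adjusted p = 0.052, limma). For both genes the groups were apart, and the differences within slide 1 were -0.36 and -0.44. The leukotriene B4 receptor gene Ltb4r1 differed by -0.30 ± 0.14 and only by -0.02 within slide 1. Ltc4s, the dedicated leukotriene C4 synthase, was named here after its values were seen. It was at -2.38, -2.27 and -2.32 with IL-4, against -2.39, -2.44 and -2.34 with PBS, a log2 fold change of 0.06 ± 0.10 (SE).

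No gene of glutathione supply or reduction passed (0). Of 17 genes of glutathione synthesis and turnover 0 passed in limma (5 lower and 2 higher at an unadjusted p under 0.05, beside 34.1% of all genes in either direction), and their median log2 fold change was -0.06. Cbs, the first enzyme from homocysteine to cysteine, differed by 1.73 ± 0.44 (SE, adjusted p = 0.058, limma). It was at 2.64, 2.90 and 2.97 with IL-4 and at 2.29, 0.66 and 0.38 with PBS, so PBS replicate 1 was 1.77 above what PBS replicates 2 and 3 averaged, and within slide 1 the difference was 0.55. Ggt1, the gamma-glutamyltransferase that breaks down glutathione outside the cell, differed by -0.56 ± 0.19, and Chac2, which degrades glutathione in the cytosol, by -0.54 ± 0.12 (adjusted p = 0.085 and 0.052, limma). Within slide 1 Ggt1 differed by -0.25 and Chac2 by -0.59. Ggt1 was at -4.64 to -3.62 over the 6 arrays, and its groups overlapped. Of 14 redox and glyoxalase genes 0 passed in limma (4 lower at an unadjusted p under 0.05), with a median of -0.15. The glutathione peroxidase genes Gpx7, Gpx3 and Gpx1 differed by -0.72 ± 0.27, -0.65 ± 0.24 and -0.50 ± 0.15 (SE, adjusted p = 0.11, 0.11 and 0.072, limma). Within slide 1 they differed by -0.44, -0.09 and -0.18. Gpx7 was at -5.00 to -3.27 over the 6 arrays and Gpx3 at -4.80 to -3.57, and the Gpx3 groups overlapped.

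Of 8 tested genes for export and processing of glutathione conjugates 1 fell in limma and 7 did not pass, beside 2.54% of all genes called lower. Lower at an unadjusted p under 0.05 were 5 of the 8, beside 17.5% of all genes. Abcc4 encodes the multidrug resistance protein MRP4, which pumps out prostaglandins, leukotrienes and conjugates. It was at 0.69, 0.71 and 0.73 with IL-4, against 1.19, 1.49 and 1.35 with PBS, and its log2 fold change was -0.63 ± 0.11 with an adjusted p of 0.036 by limma (SE). As with Mgst2, the IL-4 arrays were tightly grouped below all PBS arrays. Within slide 1 the difference was -0.48, and the gene did not pass with slide as a block or without IL-4 replicate 1, 2 or 3 or PBS replicate 2 or 3. The transporter genes Abcc2 and Abcg2 differed by -0.55 ± 0.14 and -0.50 ± 0.13 (SE, adjusted p = 0.056 and 0.058, limma), and within slide 1 by -0.47 and -0.26. The median of this list was -0.46.

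NRF2 is the transcription factor, and KEAP1 its inhibitor, that set the basal level of many glutathione genes. Of 25 tested regulators and other targets, 0 passed in limma, while 7 were lower and 6 higher at an unadjusted p under 0.05 (17.5% and 16.6% of all genes), with a median of -0.08. Nfe2l2, which encodes NRF2, was at 3.90, 3.74 and 3.63 with IL-4, against 3.94, 4.44 and 4.42 with PBS. The log2 fold change was -0.51 ± 0.16 (SE, adjusted p = 0.075, limma), and within slide 1 it was -0.18. Sqstm1, the autophagy receptor p62, differed the other way, by 0.51 ± 0.11 over all arrays and 0.46 within slide 1 (adjusted p = 0.052, limma). Ephx1, the microsomal epoxide hydrolase, differed by 1.19 ± 0.30 (adjusted p = 0.059, limma), but PBS replicate 1 at 2.19 stood far from PBS replicates 2 and 3 at 1.11 and 0.86, and within slide 1 the difference was 0.39.

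**Figure D4:**
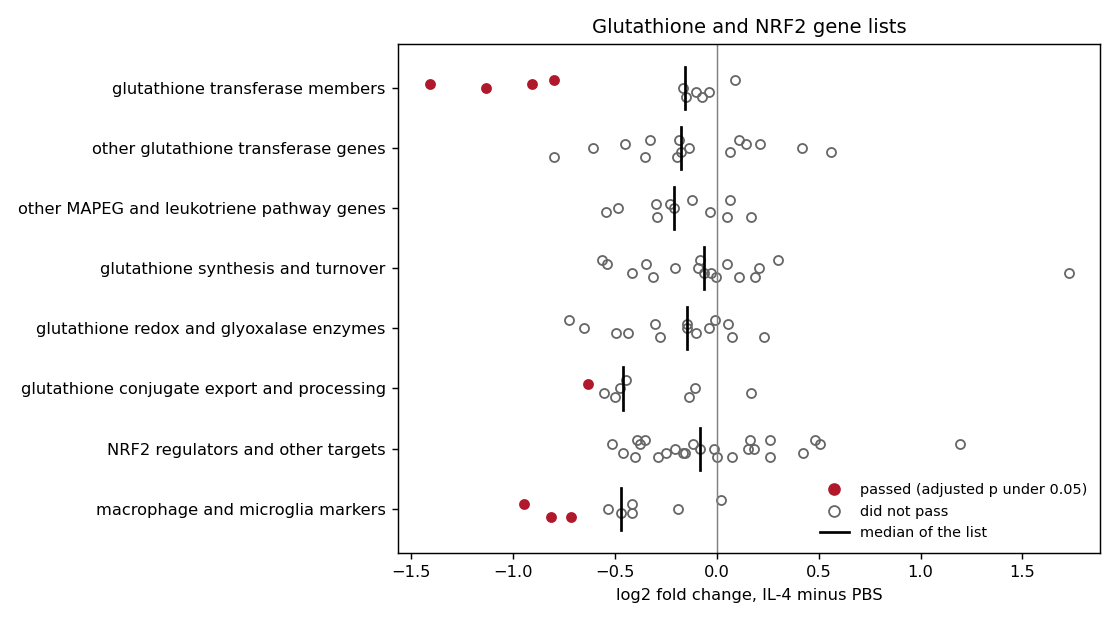
Log2 fold change of IL-4 minus PBS (horizontal axis) for every tested gene of the glutathione and NRF2 lists and of the macrophage and microglia markers, 1 row per list. Filled red points passed an adjusted p of 0.05, open points did not, and the black bar is the median of the list. Outside the members and the macrophage markers, Abcc4 is the gene that passed.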

How the data were processed

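The authors' scanner output gives each spot's intensity from Feature Extraction 11.0.1.1, which subtracted background and detrended each array without normalizing between arrays, per the file headers. The deposited value table is on a log2 scale with equal quartiles in all columns, how it was made is not stated in the labels, and it served as an alternative. Control spots and outlier spots (87 to 394 per array) were left out, copies of a probe were averaged, and log2 processed signal was set relative to the 75th percentile of each array. Accessions were matched to a RefSeq table (GRCm38.p6), which named 27228 of 39429 probes (69.1%). The filter kept 35979 probes that exceeded background on all arrays of IL-4, of PBS or of both, and the brightest stood for a gene. IL-4 was compared with PBS with limma 3.58.1 (lmFit, then eBayes, in R 4.3.3), using Benjamini-Hochberg adjustment over 29752 genes. Every adjusted p is from this fit, except where another fit is named. SD is over 3 arrays. SE is that of this fit, or for the members that of the same model fitted over all 35979 probes. Slides were told apart by the scan record in the file headers. The fit was tested on simulated data with 200 changed genes. These data held independent noise and no slide effect, so they cannot show how slides affect the calls. Members and gene lists were chosen with earlier results of these data known. All members were to be named. In the other lists, called genes and up to 3 others with the largest differences were to be named, with the 5 genes most like Mgst2, and 2 genes that this rule names are not reported here. Gstp2, Ltc4s and the called macrophage markers were named after their values were seen. Alternatives were other scaling, normexp background correction (offset 50, on median spot signal in place of the planned mean, which was not used here), the authors' table, other filters on dim probes, the mean of probes, slide or replicate number as a block, slide 1 alone and leaving out each array.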

Additional observations from a re-analysis of the deposited data

How the results depend on the processing

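No called member changed direction in any of 18 alternative fits. The other filters on dim probes and the replicate block left the fold changes of the called members unchanged. Slide as a block and slide 1 alone gave the same fold changes, so the 18 fits are not independent checks. Over them the log2 fold change was -1.50 to -1.22 for Mgst2, -1.26 to -0.89 for Mgst1, -1.05 to -0.62 for Gstm1 and -0.92 to -0.55 for Mgst3. With the mean of probes Gsta3 moved to -0.46. The count of members called, 4 in the fit reported, was 1 without a filter on dim probes and 1 with slide as a block. It was 0 to 4 leaving out 1 array, and 4 in every other fit except slide 1 alone. Slide 1 alone holds a single PBS array and so no spread between PBS arrays, and its counts of calls are not given. Over the whole array 997 genes were called, 75.9% of them lower with IL-4. The count was 2636 with quantile normalization, 1733 with median scaling and 523 with the 75th percentile over probes above background on all arrays. It was 4761 with normexp and the 75th percentile (46.1% lower), 3697 with normexp and quantile (61.5% lower) and 2288 with the authors' table. The count was 15 without the filter, 3808 with probes above background on all arrays, 605 with the mean of probes and 9 with slide as a block. It was 0 to 12654 leaving out 1 array (0 without IL-4 replicate 1 or PBS replicate 2 by limma, with 7325 and 6297 at an unadjusted p under 0.05), the highest being without PBS replicate 1. The cause of these shifts was not tested. Of the other glutathione transferase genes, 0 were called in the fit reported. This became 2 with quantile normalization, median scaling, the authors' table or probes above background on all arrays, 4 with normexp and the 75th percentile, 3 with normexp and quantile, and 0 to 8 leaving out 1 array. Of 75 pathway and NRF2 genes, 1 was called in the fit reported. It became 10 with quantile normalization, 6 with median scaling, 17 with normexp and the 75th percentile, 15 with normexp and quantile, 8 with the authors' table, 13 with probes above background on all arrays and 0 to 33 leaving out 1 array. By limma it was 0 without the filter and 0 with slide as a block. At an unadjusted p under 0.05 (limma) these 2 fits gave 32 and 11 of the 75. Over the whole array they gave 9653 of 32451 and 3040 of 29752 genes. With the replicate number as a block, 3770 genes, 4 members, 4 other transferase genes and 12 pathway genes were called. Whether the numbers pair the samples cannot be decided from 3 arrays per group. The deviations of same-numbered arrays correlated at 0.08, -0.02 and 0.29, and those of differently numbered arrays at -0.19 to 0.06. The precision of every value is limited by 3 arrays per group, and the dimmer Gsta3 probe by its low signal.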
